A study of Mus musculus with 8 samples.

Results

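The transcripts described here are those of mucins and of proteins that intestinal goblet cells secrete, in the ileum of mice with and without Slc51a. They were taken as each probe set (the group of probes that reads 1 transcript) whose single gene symbol was Muc2, Muc1, Muc4, Muc13, Tff3, Fcgbp, Clca1, Zg16, Agr2 or Spink4. Of these 10 genes 9 had such a probe set, 14 probe sets in all of 45037. No probe set carried Muc2 as its single symbol in the annotation used here, and Muc2 was not analysed here. Each gene was represented by its brightest probe set, which gave 9 of the 17097 genes tested.

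Ileal tissue came from 4 wild-type and 4 Slc51a knockout mice, males on a C57BL/6 background, aged about 2 months, fasted for 4 h and anesthetized with ketamine-xylazine. Slc51a encodes a subunit of the transporter that carries bile acids across the basolateral membrane of the enterocyte, and the allele is not named in the sources used here. Each RNA sample was read on 1 Affymetrix array, and values are log2 signals, in which each doubling adds 1. A difference is the mean of the 4 knockout arrays minus that of the 4 wild-type arrays, SE is its standard error, and an adjusted p is from limma with Benjamini-Hochberg adjustment over all genes. The Slc51a signal was 11.29 to 11.41 in wild type and 4.50 to 4.68 in the knockout. Array medians lay between 4.56 and 4.60. The labelled tissue carried the ileal genes Fabp6, at 13.11 ± 0.02 (SD, n = 4) in wild type, and Slc10a2, at 11.42 ± 0.11.

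Goblet cells are secretory cells of the intestinal epithelium that release mucus onto its surface. The gel itself is built from polymers of the mucin Muc2, which fold in the endoplasmic reticulum with the help of the disulfide isomerase Agr2. The stored granules also hold Fcgbp, a large protein bound into the gel, Clca1, a secreted protease that processes mucus, Zg16, a lectin that binds bacterial cell walls, the trefoil peptide Tff3 and the protease inhibitor Spink4. Muc1, Muc4 and Muc13 are not secreted gels but membrane-anchored mucins of the apical surface, and Muc13 is made by enterocytes as well as by goblet cells.

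The mucus genes did not move as a block in the knockout. Muc13, Clca1 and Fcgbp fell to about the same degree, Agr2 rose, and the trefoil peptide Tff3, the lectin Zg16, the protease inhibitor Spink4 and the membrane mucins Muc1 and Muc4 did not pass the threshold of 0.05. That is 3 lower, 1 higher and 5 not called of 9 genes, with a median difference of -0.06. Over all 17097 genes tested, 12.9% were called lower, 17.1% higher and 30.0% in either direction, with a median difference of 0.01. The genotypes did not overlap for 4 of the 9 genes, against 30.7% of all genes. In this whole tissue fewer cells of a type and less RNA per cell cannot be told apart.

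Muc13, the membrane mucin, gave 12.08, 11.97, 11.88 and 11.92 in wild-type ileum and 11.59, 11.58, 11.47 and 11.58 in knockout ileum. Each knockout sample lay below each wild-type sample. The log2 difference was -0.41 (SE 0.06, adjusted p = 0.000248), a fall to 0.75 of the wild-type signal with a 95% confidence interval of 0.69 to 0.82. Its other probe set was at 10.66, 10.46, 10.32 and 10.40 in wild type and at 9.94, 9.73, 9.84 and 10.15 in the knockout, again with no overlap. In the limma fit over all probe sets it changed by -0.54 (SE 0.09, adjusted p = 0.00162). The identifier of the brighter one marks probes that several transcripts can share, and the dimmer one, which has no such mark, moved the same way.

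Clca1, the mucus-processing protease, was at 12.49, 12.53, 12.52 and 12.57 in wild type. In the knockout it was at 12.14, 12.16, 12.01 and 12.20, below every wild-type sample. It changed by -0.40 (SE 0.05, adjusted p = 0.000170), to 0.76 of the wild-type signal with an interval of 0.70 to 0.82. The older mouse name of this gene is Clca3 or gob-5, and the match was made through the Entrez identifier because the names of this family were reassigned. A dimmer Clca1 probe set was at 6.46 to 6.70 in wild type and 5.90 to 6.20 in the knockout, a difference of -0.50 (SE 0.08, adjusted p = 0.000711 in the limma fit over all probe sets).

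Fcgbp, the gel-bound protein, was at 11.99, 12.10, 12.15 and 12.05 in wild type and at 11.62, 11.82, 11.48 and 11.76 in the knockout. The groups did not overlap, although the knockout samples were more spread, with an SD of 0.15 against 0.07. It changed by -0.40 (SE 0.07, adjusted p = 0.00170), to 0.76 of the wild-type signal with an interval of 0.68 to 0.85. Fcgbp had a single probe set.

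Agr2, the disulfide isomerase of the secretory pathway, was the member that rose. Its values were 11.79, 11.80, 11.71 and 11.71 in wild type and 12.02, 11.93, 12.04 and 12.21 in the knockout. Every knockout sample was above every wild-type sample, and knockout replicate 4 was the highest. The rise was 0.29 (SE 0.06, adjusted p = 0.00377), to 1.23 times the wild-type signal with an interval of 1.12 to 1.35. A second Agr2 probe set was at 10.71 to 10.75 in wild type and 10.88 to 11.17 in the knockout. It rose by 0.27 (SE 0.06, adjusted p = 0.00800 in the limma fit over all probe sets). Its identifier marks probes that may also bind other transcripts, and that of the brighter one does not. Of the 14 probe sets, 5 were called lower and 2 higher, against 9.81% and 11.8% of all probe sets. The genotypes did not overlap for 7 of the 14, against 23.8% of all probe sets. No gene had probe sets called in opposite directions.

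**Figure D1:**
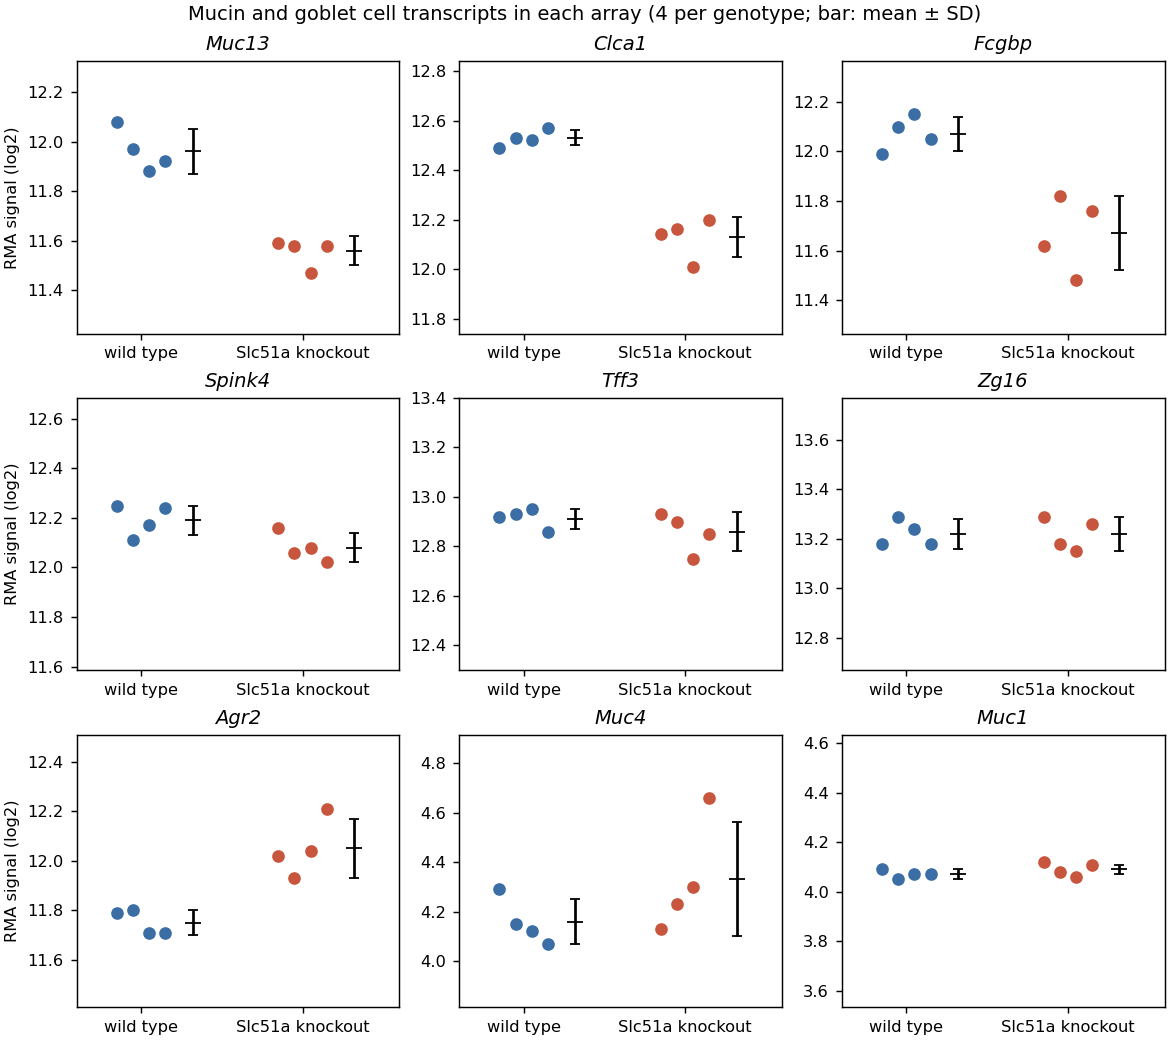
RMA signal (log2, vertical axis, with the same span in each panel) of the 9 genes in each array, with the 4 wild-type samples in blue, the 4 knockout samples in red and bars for mean ± SD. The red points lie below the blue ones for Muc13, Clca1 and Fcgbp, above them for Agr2, and overlap with them for the other genes, although most Spink4 values of the knockout were below those of wild type.

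The stretches upstream of the genes that fell or rose are shown for those listed in the RefSeq promoter table of GRCm38.p6, since promoters are where members that move together can be compared. The 250 bases before the annotated start are given for Muc13 and Fcgbp, which fell, and for Agr2, which rose. Capitals mark E-boxes, CANNTG, the letters that basic helix-loop-helix factors such as the secretory fate factor Atoh1 can bind.
Muc13, chr16:33793787-33794036, + strand: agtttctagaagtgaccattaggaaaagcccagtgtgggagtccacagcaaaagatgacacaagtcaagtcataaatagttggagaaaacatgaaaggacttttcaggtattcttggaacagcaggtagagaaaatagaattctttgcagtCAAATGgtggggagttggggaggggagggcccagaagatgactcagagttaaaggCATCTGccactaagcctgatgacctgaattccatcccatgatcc
Fcgbp, chr7:28070986-28071235, + strand: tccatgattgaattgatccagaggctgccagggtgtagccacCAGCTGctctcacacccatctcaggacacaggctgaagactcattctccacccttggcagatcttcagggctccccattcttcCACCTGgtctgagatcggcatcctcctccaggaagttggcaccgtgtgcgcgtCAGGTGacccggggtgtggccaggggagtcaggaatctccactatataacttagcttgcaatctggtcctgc
Agr2, chr12:35992675-35992924, + strand: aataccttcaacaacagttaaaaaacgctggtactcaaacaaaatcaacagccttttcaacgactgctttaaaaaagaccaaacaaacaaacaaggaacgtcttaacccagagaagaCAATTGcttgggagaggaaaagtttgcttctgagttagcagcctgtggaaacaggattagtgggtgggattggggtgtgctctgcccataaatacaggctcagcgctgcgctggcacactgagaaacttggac
The Muc13 stretch held 2 E-boxes, that of Fcgbp 3 and that of Agr2 1, on a motif that reads the same on both strands. Of all 32851 listed stretches of this length, 66.2% held at least 1, so its presence sets none of these genes apart. The nuclear receptor hexamer AGGTCA, searched on both strands, occurred 1 time before Muc13 and 0 times before Fcgbp and Agr2, and in 14.0% of all stretches. The letters TATAA, also on both strands, occurred 1 time before Fcgbp and in 22.8% of all stretches. None of these matches is evidence of binding.

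Tff3, the trefoil peptide, was at 12.92, 12.93, 12.95 and 12.86 in wild type and at 12.93, 12.90, 12.75 and 12.85 in the knockout. The samples of the genotypes were intermixed, knockout replicate 3 being the lowest. The difference was -0.06 (SE 0.05, adjusted p = 0.487), with an interval from -0.17 to 0.06 on the log2 scale. A signal change as large as that of Clca1 lay outside this interval. Tff3 lay near the top of the scale, though, where differences are compressed, so a change of the transcript may be understated.

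Zg16, the lectin, was at 13.18, 13.29, 13.24 and 13.18 in wild type and at 13.29, 13.18, 13.15 and 13.26 in the knockout. These values lay at the top of the scale, since the highest signal of any array was between 13.23 and 13.38, and differences are compressed there. The difference was -0.003 (SE 0.05, adjusted p = 0.971), with an interval from -0.11 to 0.11. Its other probe set, at 12.41 to 12.56 in wild type and 12.45 to 12.65 in the knockout, differed by 0.04 with an interval from -0.09 to 0.17.

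Spink4, the Kazal-type inhibitor, was at 12.25, 12.11, 12.17 and 12.24 in wild type and at 12.16, 12.06, 12.08 and 12.02 in the knockout. Most knockout samples were below the wild-type samples, but knockout replicate 1 was above wild type replicate 2. The difference was -0.12 (SE 0.05, adjusted p = 0.111), with an interval from -0.23 to -0.01. With cyclic loess normalisation of the deposited values both Spink4 (-0.22, adjusted p = 0.00921) and Tff3 (-0.16, adjusted p = 0.0361) were called lower in limma, which made 5 members lower in place of 3. Spink4 was also called with limma's trend and robust prior (adjusted p = 0.0257).

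Both other membrane mucins were dim. Muc1 lay between 4.05 and 4.12 in all 8 samples, below the median of all probe sets, 4.58, and differed by 0.02 (SE 0.04, adjusted p = 0.775). Muc4 was at 4.29, 4.15, 4.12 and 4.07 in wild type and at 4.13, 4.23, 4.30 and 4.66 in the knockout, a difference of 0.17 (SE 0.10, adjusted p = 0.236). Only knockout replicate 4 was above the median of all probe sets, and without it the Muc4 difference was 0.07 (adjusted p = 0.532). The second Muc4 probe set stayed between 3.18 and 3.43. The deposited table gives no detection calls, so neither Muc1 nor Muc4 is shown to be expressed, and a difference at this level may be understated.

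**Figure D2:**
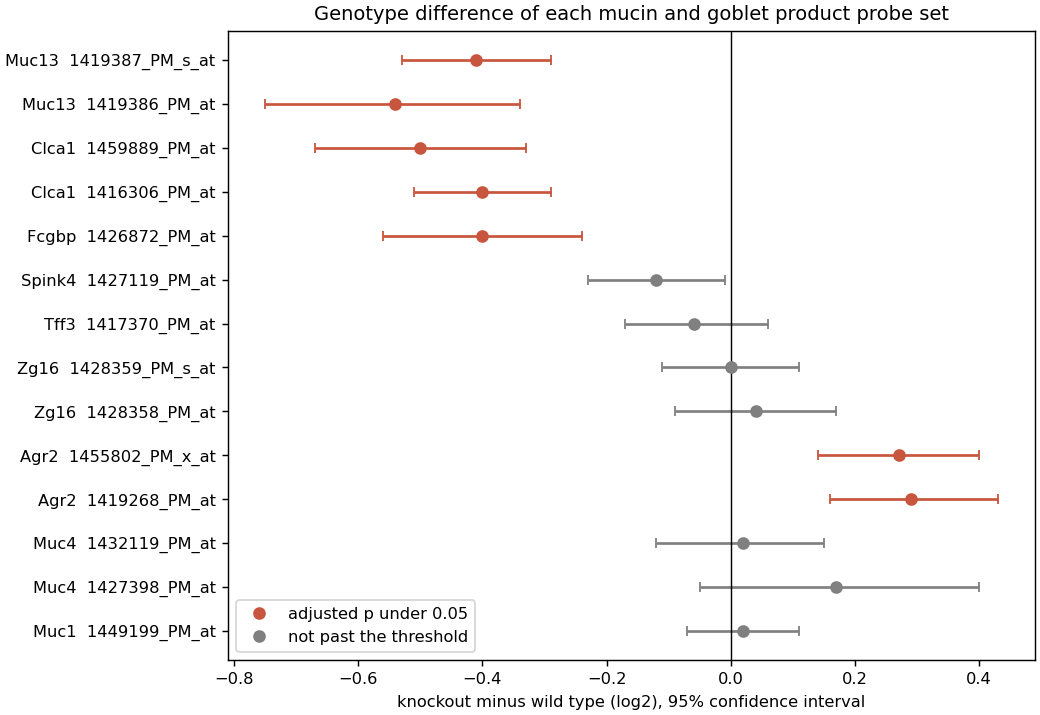
Knockout minus wild type difference (log2, horizontal axis) of each of the 14 probe sets with its 95% confidence interval, named by gene and probe set. The 7 red points passed an adjusted p of 0.05, 5 of them to the left of 0 (Muc13, Clca1 and Fcgbp) and 2 to the right (Agr2).

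A further comparison asked whether members differed from one another in their response, by subtracting in each array the signal of 1 goblet cell transcript from that of every gene. Muc2 had been chosen as that reference and could not be used, and Tff3 was taken in its place after the values were seen. Relative to Tff3, Muc13 changed by -0.35 (SE 0.07, adjusted p = 0.000912), Clca1 by -0.35 (SE 0.07, adjusted p = 0.000887) and Fcgbp by -0.35 (SE 0.07, adjusted p = 0.00189) in limma. Agr2 was higher by 0.35 (SE 0.08, adjusted p = 0.00355). Zg16 differed from Tff3 by 0.05, with an interval from -0.08 to 0.19, and Spink4 by -0.06, from -0.21 to 0.09. Thus 3 of the other 8 members were called lower and 1 higher relative to Tff3, against 8.52% and 19.0% of all genes. Tff3 itself differed by -0.06 and lay near the top of the scale, so these values largely repeat the differences of the single genes and are no independent support for them.

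Spink4, a second reference that was also not planned, was less close to the top of the scale. It differed itself by -0.12, with an interval from -0.23 to -0.01. Subtracting it therefore moves the difference of every gene upward, and the values are again no independent support. With Spink4 as the reference, the differences in limma were -0.29 for Muc13 (adjusted p = 0.00410), -0.28 for Clca1 (0.00620), -0.29 for Fcgbp (0.0214) and 0.41 for Agr2 (0.000806). Muc4, below the median probe set, was also called in that fit (0.29, adjusted p = 0.0442), in which 6.74% of genes were called lower and 30.0% higher. Without wild type replicate 2, knockout replicate 3 and knockout replicate 4, whose hybridization controls were lowest, Agr2 relative to Tff3 was 0.22 and lost its call (adjusted p = 0.0623). The 3 falls relative to Tff3 were called without those arrays too.

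**Figure D3:**
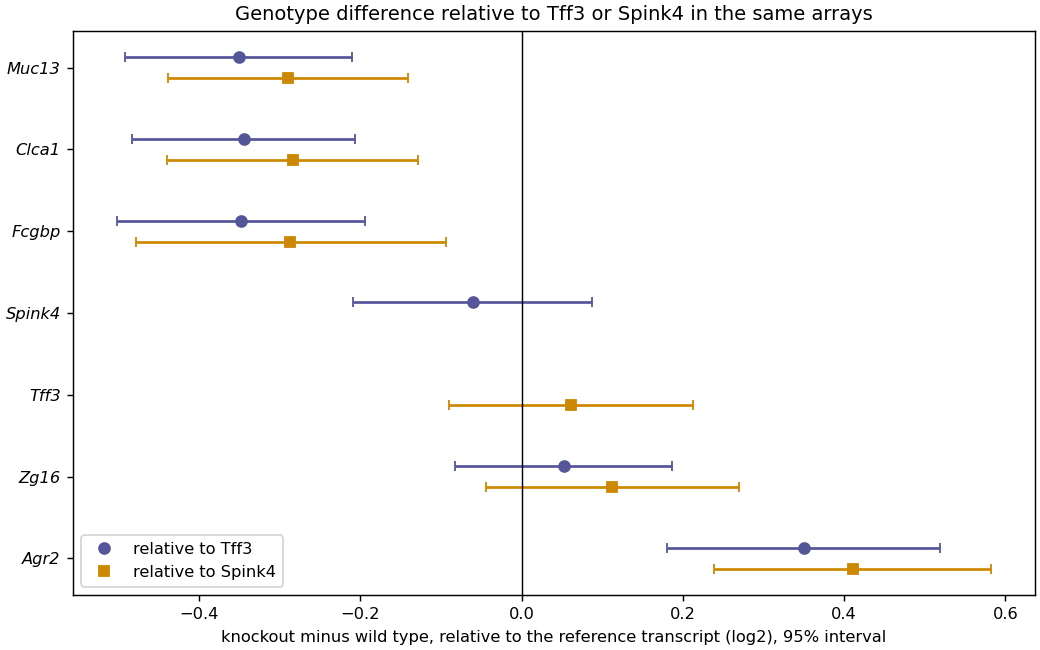
Knockout minus wild type difference of 7 genes after subtraction of Tff3 (circles) or Spink4 (squares) in each array (log2, horizontal axis), with 95% confidence intervals. Muc13, Clca1 and Fcgbp lie left of 0 and Agr2 right of 0 with both references, while the intervals of Zg16, Spink4 and Tff3 span 0.

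Among the 7 members at or above the median probe set, the SD between samples of a genotype was 0.03 to 0.09 in wild type and 0.06 to 0.15 in the knockout. It was larger in the knockout for 5 of the 7 genes, as for 58.3% of all genes. Knockout replicate 3 was the lowest knockout sample for 5 of these 7 genes, among them the 3 that fell, and for 26.7% of the genes at or above the median probe set. Its hybridization controls, spiked-in bacterial and phage targets, averaged 8.74, the lowest of the 8 arrays, which ranged up to 9.15. The part of this in the result was not tested. With that array left out the same count of members was called, 3 lower and 1 higher, but the 3 falls were smaller. They were then -0.38 for Muc13, -0.36 for Clca1 and -0.34 for Fcgbp, while the rise of Agr2 was 0.30. The per-array profile of Muc13, taken as deviations from the wild-type mean, was matched most closely among 11087 other genes by Actn2, Spg20 and Sowahb, at root mean square distances of 0.043, 0.047 and 0.053 over the 8 arrays. Among the members Clca1 was nearest to Muc13, at 0.073, then Fcgbp, at 0.114. These distances include the genotype difference itself, so genes with a similar difference are near by construction, and no further likeness is read from them.

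Other mucins were examined as lists. Of 5 further membrane mucins, Muc3, a mucin of the enterocyte brush border, was at 12.33, 12.49, 12.35 and 12.42 in wild type and at 12.23, 12.17, 12.11 and 12.03 in the knockout. Muc3 fell by 0.26 (SE 0.06, adjusted p = 0.00470), with no overlap. Muc20 was at 5.83 and 5.73 (adjusted p = 0.348), and Muc15, Muc16 and Emcn, the last an endothelial sialomucin, lay below the median probe set, with differences of 0.05, -0.13 and -0.22 that did not pass. Of the 3 measured secreted mucins of stomach, airway and salivary gland, Muc5ac differed by -0.01, Muc5b by 0.04 and Smgc, under which the Muc19 locus is listed, by -0.08. Of these 3 limma called 0, with 0 at an unadjusted p under 0.05, and all lay near or below the median probe set.

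Marker levels of other cell types moved in the same samples. Of 14 mature enterocyte genes 13 fell and 1 did not pass, with a median difference of -0.61, and the list's mean signal was 10.71 to 10.90 in wild type and 9.98 to 10.18 in the knockout. This stands beside the falls of Muc13 and Muc3, which enterocytes also express, and its part in them was not tested. All 11 smooth muscle genes fell (mean signal 9.24 to 9.63 against 8.52 to 8.77), as did all 12 T lymphocyte genes (6.61 to 6.81 against 5.44 to 5.68). Of 7 genes on the Paneth cell list 2 fell, Defa21 by 0.34 and Lyz2, the lysozyme of macrophages, by 0.16, and 5 did not pass. The identifier of the Lyz2 probe set marks probes that may also bind other transcripts. Its signal, 13.31 in wild type, lay at the top of the scale, so it is not read as macrophage RNA. Lyz1, the lysozyme of Paneth cells, was among those that did not pass (-0.16, adjusted p = 0.102 in limma). The list's mean signal, 9.30 to 9.75 in the knockout and upward of 9.42 in wild type, overlapped between genotypes. Of 14 enteroendocrine genes 5 rose and 1 fell, and of 9 tuft cell genes 3 fell and 6 did not pass. Of 9 crypt stem cell genes 1 rose and 2 fell. Against 17.1% of all genes called higher and 12.9% lower, the Paneth, enteroendocrine, tuft and crypt stem cell counts are a few genes each, and no change of these cell types is read from them.

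Among 12 regulators of goblet cell fate 2 were called higher, 3 lower and 7 neither way, with a median difference of 0.02. Over all genes 17.1% were called higher and 12.9% lower, so no direction is read from the counts of so few genes. Klf4, a zinc finger factor of goblet and villus cells, was at 11.04, 11.11, 11.15 and 10.99 in wild type and at 10.45, 10.24, 10.16 and 10.11 in the knockout. It changed by -0.83 (SE 0.07, adjusted p = 1.57e-05). Bhlha15, a factor of secretory cell maturation, changed by -0.27 (adjusted p = 0.00651). The Notch target Hes1, which represses secretory fate, rose by 0.38 (SE 0.08, adjusted p = 0.00461), and the forkhead factor Foxa1 by 0.22 (adjusted p = 0.0194). Spdef, the factor that drives goblet cell maturation, and Atoh1, which specifies secretory cells, are named here after their values were seen. Spdef was at 6.68 ± 0.10 (SD, n = 4) and 6.72 ± 0.06, a difference of 0.04 with an interval from -0.09 to 0.17. Atoh1 was at 7.70 ± 0.09 and 7.85 ± 0.04, a difference of 0.15 (adjusted p = 0.0607).

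Among 19 further goblet cell genes 5 were called higher, 4 lower and 10 neither way, with a median difference of 0.08, where 17.1% of all genes were called higher and 12.9% lower. Pla2g10, a secreted phospholipase A2, was at 6.80, 6.85, 6.67 and 6.77 in wild type and at 7.90, 7.85, 7.85 and 7.70 in the knockout. It rose by 1.05 (SE 0.06, adjusted p = 1.02e-06), a larger difference than that of any member. Smim6 rose by 0.57 (SE 0.05, adjusted p = 1.24e-05), Galnt12, a transferase that starts mucin O-glycans, by 0.41 and Rep15, a Rab15 effector, by 0.41. The 4 lower genes, chosen for mention with their values known, were the stress-induced Nupr1, by 0.50 (SE 0.10, adjusted p = 0.00241), the potassium channel subunit Lrrc26, by 0.30, the vesicle protein Sytl2, by 0.29, and the potassium channel Kcnma1, by 0.21. Retnlb, the resistin-like goblet cell protein, named after its values were seen, was at 5.06, 5.24, 4.49 and 6.42 in wild type and at 5.02, 5.82, 4.96 and 4.68 in the knockout. The interval of its difference ran from -0.97 to 0.61, which spans differences as large as those of the members.

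Among 19 enzymes that build the sugar chains of mucins 7 were called higher, 3 lower and 9 neither way, with a median of 0.12. All genes also leaned towards higher calls, with 17.1% higher and 12.9% lower, and whether the list differs from them was not tested. Galnt12 is in this list too, and Galnt2, another initiating transferase, rose by 0.30 (SE 0.05, adjusted p = 0.00174). Gcnt1, which branches the core of the chain, was at 8.19, 8.11, 7.89 and 7.85 in wild type and at 4.39, 4.50, 4.39 and 4.83 in the knockout, where it lay around the median probe set. It changed by -3.48 (SE 0.11, adjusted p = 4.17e-08). B4galnt2, which caps chains in the gut, changed by -0.29 (adjusted p = 0.00178). Of 14 genes of mucus release, hydration and crosslinking, limma called 0 higher (0 also at an unadjusted p under 0.05), 3 lower and 11 neither way, with a median of -0.06, against 17.1% higher and 12.9% lower over all genes. Those that fell were the anion exchanger Slc26a6, by 0.59, the peptidase Mep1b, which cleaves Muc2 in the small intestine, by 0.37 (adjusted p = 0.000261), and the transglutaminase Tgm2, by 0.33. Mep1b is also a brush border enzyme of the enterocyte.

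Agr2 was set beside other proteins that fold secretory cargo. Among 16 such genes 4 were called higher, 2 lower and 10 neither way, with a median of 0.04. Over all genes 17.1% were higher and 12.9% lower, and nothing is read from the difference in these shares. The oxidase Ero1a rose by 0.48 (SE 0.06, adjusted p = 0.000186) and the isomerase Pdia6 by 0.37 (SE 0.06, adjusted p = 0.000871), while Ero1b fell by 0.44 (adjusted p = 0.000423) and Edem1, of the degradation pathway, by 0.21 (adjusted p = 0.0185). On a list of 10 genes, most of them cytokines and receptors of the type 2 response, which acts on goblet cells, 8 did not pass, among them all the type 2 cytokines and receptors. Stat6, the transcription factor that the IL-4 receptor activates, rose by 0.33 (adjusted p = 0.00471). Il10rb, a shared subunit of the IL-10 and IL-22 receptors and not a type 2 receptor, fell by 0.20 (adjusted p = 0.0368). Il13 averaged 4.18 in wild type against 4.23 in the knockout. It lay below the median probe set, as did Il4, Il5, Il25 and Tslp, so the lack of a call for these says little.

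**Figure D4:**
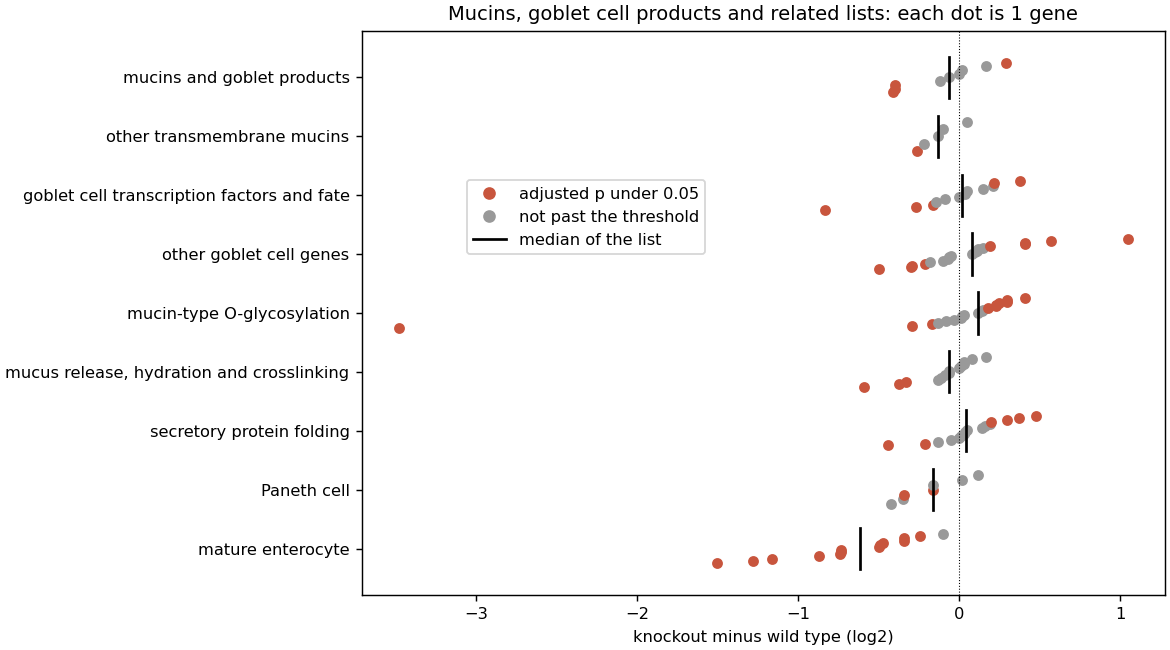
Knockout minus wild type difference (log2, horizontal axis) of each gene in the mucin and goblet product set and in 8 related lists, with red dots for an adjusted p under 0.05 and a black bar for the median. Mature enterocyte genes lie left of 0 (median -0.61), whereas the goblet cell lists spread to both sides, with medians of 0.02 and 0.08.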

How the data were processed

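Ileal RNA (250 ng per sample) was labelled with biotin and hybridised to 1 Affymetrix 3' array per mouse. The deposited values are log2 signals per probe set, made by the authors with RMA per the submitters' processing notes, with no software version given in the sources used here. RMA subtracts background, equalises the arrays and summarises probes. Differences near the floor or the ceiling of such array signals are compressed.

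After removal of 104 control probe sets, symbols of 28898 of 45037 probe sets with a single gene were updated by Entrez identifier through RefSeq (GRCm38.p6, 28689 matched), 551 had several symbols and 15588 none listed. Genes took the probe set with the highest mean. The test was limma's lmFit and eBayes (version 3.58.1, R 4.3.3, 2-sided) with Benjamini-Hochberg adjustment over 17097 genes, and separately over all probe sets. The planned comparison relative to Muc2 was replaced by Tff3. Data were simulated for 17097 genes, with 50 of them changed at each size of difference. Of the changed genes, 32% were recovered at 0.25 and 88% at 0.5, with 1 false call over all sizes. In the measured data 30.0% of genes were called, a far larger share, so these rates do not carry over.

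The members and lists were chosen with earlier results of these data known. Named were all members, up to 4 called genes per list by adjusted p (at or above the median probe set), all genes of lists with at most 5 measured, and the 3 genes nearest in profile to the member that changed most. The labels number the samples as biological replicates. Their number limits the precision. Array batches are not named in the labels used here. Alternatives were a filter on dim genes, other normalisations, probe set rules and variance priors, array weights, hybridization controls, the replicate block and leaving out arrays. Figures were drawn with matplotlib 3.10.9.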

Additional observations from a re-analysis of the deposited data

Results flagged for a closer look

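Muc13 in knockout replicate 3 was at 11.47, while the other 3 knockout samples lay between 11.58 and 11.59. Its gap to the nearest of them was 0.904 of the group's range, above Dixon's 95% critical value for 4 samples. This was 1 of 28 groups of 4 examined, and chance alone gives about 1 in 20. Without that array Muc13 was still called lower.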

How the results depend on the processing

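Muc13, Clca1, Fcgbp and Agr2 kept their direction and their call in all 20 alternatives run for each, with differences of -0.51 to -0.37, -0.50 to -0.36, -0.50 to -0.34 and 0.19 to 0.34. Tff3 and Spink4 were called lower with cyclic loess, which gave 5 members lower, and Spink4 with the trend and robust prior. Muc1, Muc4 and Zg16 were called in none of 19, 19 and 20. Leaving out 1 array gave 3 members lower and 1 higher each time, 3 lower and 1 to 2 higher relative to Tff3, and 2493 to 2853 genes higher and 1873 to 2100 lower. The number higher relative to Tff3 was 3 with cyclic loess, 2 with the replicate block, 2 with Spink4 as reference and 0 without the 3 arrays with low hybridization controls. The additional calls were dim Muc4 and, with cyclic loess, Muc1. Without those 3 arrays 1414 genes were lower, and with all probe sets fitted 5312 probe sets were higher and 4417 lower. The replicate numbers were not shown to pair the samples. Deviations of same-numbered samples correlated at 0.218, -0.051, 0.109 and 0.162 over genes. Wild type replicates 2 and 3 did not correlate best with their own number, while replicates 1 and 4 did, so pairing is not settled. The replicate block gave 3 members lower and 1 higher, and 2945 genes higher and 2245 lower. The comparison relative to Muc2 was not run.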

Other observations

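Car1, a carbonic anhydrase abundant in the large intestine and on the list of colon and caecum genes, was at 8.34, 10.95, 6.67 and 11.13 in wild type and at 10.92, 10.87, 10.48 and 8.03 in the knockout. It varied far more between samples of a genotype than any mucin or goblet product, with an SD of 2.15 in wild type. Of the 7 genes on that list 1 rose, Car4 by 1.05, and 1 fell, Mettl7b by 0.50, against 17.1% and 12.9% of all genes. Of 8 stomach genes limma called 0, with 0 at an unadjusted p under 0.05, Gkn1 being at 3.76 in wild type. Of 6 ileal genes 3 fell, Guca2b by 1.23, Slc10a2 by 0.45 and Slc51b by 0.36.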
